A study of Homo sapiens with 20 samples.

Results

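The genes described here are the 248 protein-coding genes of chromosome 19 whose symbol begins with ZNF, out of 19821 protein-coding genes annotated on hg19. They were chosen by position and name alone, and ChIP-seq peaks of STAG1, STAG2, CTCF and SMC1A that touched a gene or the 1 kb around it were assigned to its promoter (within 1 kb of the gene start), its 3′ exon (the last exon of the longest coding transcript) or the rest. M14 cells, an established human melanoma line, carried a doxycycline-inducible shRNA against STAG2 in every library. Per the labels of replicate 1, WT cells were grown without doxycycline and STAG2-KD cells with it for 5 d, while the labels of replicate 2 give the genotype and no treatment. There were 2 libraries of each condition for each antibody, and so 16 peak lists, and 4 input libraries served as the authors' controls. All libraries came from 1 line, no WT library lacked the shRNA construct, and doxycycline was given to STAG2-KD cells only, so its own effect and that of the knockdown cannot be told apart. The labels do not say whether replicates were separate cultures, so p-values measure only the spread between these libraries, which may be technical.

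Most ZNF genes encode C2H2 zinc finger proteins, in which many fingers in a row read DNA, and many carry a KRAB domain that recruits the co-repressor TRIM28 and the H3K9 methyltransferase SETDB1 to silence retroelements. On chromosome 19 they lie in tandem arrays that arose by gene duplication, with the fingers coded in 1 long final exon. The 3′ exons of these genes are themselves known as places where H3K9me3 and TRIM28 accumulate. Cohesin is a ring of SMC1A, SMC3 and RAD21 to which either STAG1 or STAG2 binds, and it often stops where CTCF is bound to DNA.

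The sequences below are examples of a 3′ exon and of promoters described later. The first is part of the 3′ exon of ZNF91, a repressor of SVA retroelements with 31 fingers, from hg19 chr19:23543657-23543887 on the minus strand. Capitals mark 3 successive fingers and lower case the linkers between them.
ZNF91: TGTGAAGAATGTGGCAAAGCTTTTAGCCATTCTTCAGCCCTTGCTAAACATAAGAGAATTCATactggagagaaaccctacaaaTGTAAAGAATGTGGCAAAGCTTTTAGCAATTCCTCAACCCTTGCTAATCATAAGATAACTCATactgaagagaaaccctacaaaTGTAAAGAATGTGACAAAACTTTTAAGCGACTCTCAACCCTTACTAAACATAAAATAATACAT
The next 4 are promoters at which STAG2 or STAG1 signal was higher in STAG2-KD, and the last 1 lies in a promoter at which a STAG2 site was lost. They come from chr19:9250897-9251047 (ZNF317, plus strand), chr19:52490155-52490305 (ZNF350, minus strand), chr19:44556026-44556176 (ZNF223, plus strand), chr19:52408294-52408429 (ZNF649, minus strand) and chr19:52800524-52800674 (ZNF480, plus strand). Each run lies around a peak summit and was cut where an annotated exon began. Capitals mark matches to ATGGCNGC, the core of the site of the zinc finger protein YY1, in ZNF317, ZNF350 and ZNF649. The ZNF649 run lies around the STAG1 summit. The run for its STAG2 summit had no match, but it was cut to 57 bases that left out the summit. The whole STAG2 peak of ZNF649 held 2 matches, and the match printed here lies within 100 bp of its STAG2 summit. Matches are commoner in these runs than in the 9 STAG2 peaks that were at least 2-fold higher, of which 4 had 1 within 100 bp of the summit. In ZNF223 and ZNF480, which had no match, capitals mark the 11 bases at the summit.
ZNF317: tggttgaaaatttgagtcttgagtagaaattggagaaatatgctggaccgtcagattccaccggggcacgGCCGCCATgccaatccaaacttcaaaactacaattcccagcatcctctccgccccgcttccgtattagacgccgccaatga
ZNF350: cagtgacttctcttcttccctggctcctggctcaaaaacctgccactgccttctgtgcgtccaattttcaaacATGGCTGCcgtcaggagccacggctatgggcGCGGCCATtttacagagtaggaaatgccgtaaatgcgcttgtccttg
ZNF223: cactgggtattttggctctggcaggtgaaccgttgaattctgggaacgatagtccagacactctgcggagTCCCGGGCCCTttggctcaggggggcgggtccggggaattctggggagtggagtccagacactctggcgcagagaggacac
ZNF649: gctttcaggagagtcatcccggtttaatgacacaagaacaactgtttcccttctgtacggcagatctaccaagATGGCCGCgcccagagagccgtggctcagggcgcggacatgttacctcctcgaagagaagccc
ZNF480: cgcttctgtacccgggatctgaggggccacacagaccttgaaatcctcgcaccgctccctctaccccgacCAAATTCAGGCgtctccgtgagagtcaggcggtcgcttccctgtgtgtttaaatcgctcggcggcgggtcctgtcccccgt

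The lists held 58521 to 91582 peaks in replicate 1 and 98453 to 150308 in replicate 2, of which 127 to 274 and 278 to 436 lay at chr19 ZNF genes. Replicate 1 lists were limited by q-value and replicate 2 lists by p-value, and the replicates differed in chromatin extraction, so WT and STAG2-KD were compared within a replicate. The lists hold no read totals, so the depth of each library is not given here. They do not measure STAG2 RNA or protein either. The nearest check is the STAG2 lists, which held 79115 peaks in WT against 58521 in STAG2-KD (replicate 1) and 119021 against 106203 (replicate 2).

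Peaks at chr19 ZNF genes were densest at their promoters. By number a list held 59 to 261 promoter peaks and 65 to 173 outside promoters and 3′ exons, and all 4 CTCF lists had more of the latter. Promoter windows held 123 to 544 peaks per Mb across the 16 lists, 3′ exons 1.14 to 29.6 per Mb and the rest of the genes 9.82 to 26.1 per Mb. Elsewhere in the genes, the STAG2 counts were 64 WT genes against 50 (replicate 1) and 75 against 73 (replicate 2). A promoter peak was present in at least 1 list for 203 of the 248 genes and in all 16 lists for 34 genes (13.7%). Among these 34 was ZNF274, which is known to bring SETDB1 to the 3′ exons of other ZNF genes, and ZNF224, a repressor of the aldolase A gene. No promoter peak was found in any list for 45 genes, and 20 of them had no peak of any class. Other chr19 genes held a promoter peak in all lists more often (18.4%) but also lacked one more often (28.0% against 18.1%). Over all protein-coding genes these shares were 22.7% and 28.0%. ZNF genes on other chromosomes more often had a promoter peak in all lists (29.4%) and less often had none (12.8%). Promoter windows of 20 chr19 ZNF genes overlapped that of another, so that 1 peak could count for a pair of genes.

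The number of genes with a promoter peak differed little between WT and STAG2-KD, except for STAG1 in replicate 1. STAG1 marked 50 WT promoters against 89 in STAG2-KD (replicate 1) and 139 against 140 (replicate 2), so the log2 ratio averaged 0.42 ± 0.58 (SD, n = 2). STAG2 marked 115 WT promoters against 107 (replicate 1) and 182 against 171 (replicate 2), with an average log2 ratio of −0.10 ± 0.010 (SD, n = 2). Within each replicate the STAG2-KD list was therefore the lower for STAG2, while across replicates the groups overlapped for every antibody.
CTCF marked 92 and 91 promoters in replicate 1 and 131 and 124 in replicate 2. SMC1A marked 122 and 123 in replicate 1 and 183 and 178 in replicate 2. The two-sided exact permutation test over libraries gave p = 0.667 for STAG1, STAG2 and CTCF and p = 1 for SMC1A, and with 2 lists against 2 it cannot go below 0.333. The STAG2 direction depended on the list length: with the same number of strongest peaks kept in every list, STAG2 marked 61 and 107 promoters in replicate 1 and 71 and 83 in replicate 2.

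**Figure D1:**
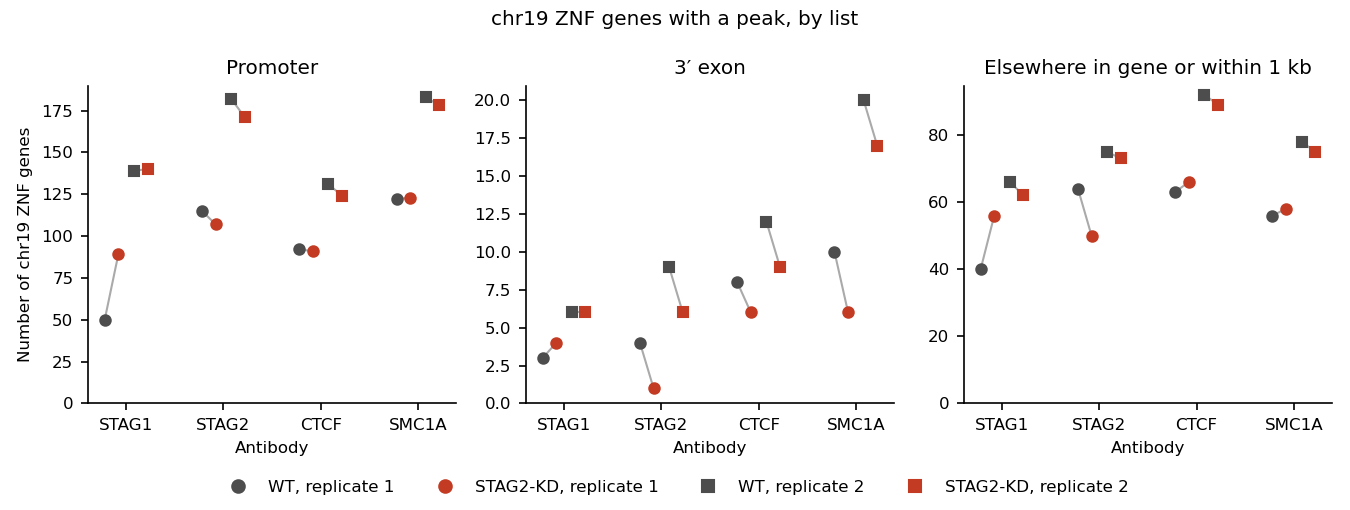
Number of the 248 chr19 ZNF genes with a promoter peak (left), a 3′ exon peak (middle) or another peak (right) in each of the 16 lists. Points are single lists, circles replicate 1 and squares replicate 2, grey WT and red STAG2-KD, and lines join the lists of 1 replicate. STAG1 promoters number 50 and 89 in replicate 1 and 139 and 140 in replicate 2.

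Where chr19 ZNF promoters kept a STAG2 peak, its signal was more often higher than lower in STAG2-KD, as at other chr19 genes and unlike the genome as a whole. STAG2 had a promoter peak in all 4 lists at 90 of the 248 genes. The fold over background of the strongest such peak was higher in STAG2-KD in both replicates at 38 of them (42.2%) and lower in both at 22 (24.4%). Over all protein-coding genes with such a peak 27.3% were higher and 41.3% lower, and for ZNF genes on other chromosomes 26.2% and 32.8%. The other genes of chromosome 19 were close to the ZNF genes, with 38.8% and 27.7%.
Strength was also read as the percentile of the peak in its own list, by p-value. A percentile depends on the length of the list, so shares of genes were set beside those of other sets of genes in the same lists. It was higher in both replicates at 43 of the 90 (47.8%, against 26.0% of all genes and 36.3% of other chr19 genes) and lower in both at 24 (26.7%, against 44.7% and 27.7%). The median change was 4.65 and 2.21 percentile points at chr19 ZNF genes in replicates 1 and 2, against −4.93 and −0.36 over all genes. These shares are descriptions over genes of the same 4 libraries and have no test over samples. When genes without a peak in some list were kept with a percentile of 0, the median over 188 genes was 8.74 in WT against 6.73 (replicate 1) and 43.5 against 40.4 (replicate 2), and the difference averaged −2.52 ± 0.71 (SD, n = 2, exact permutation p = 0.667). With lists of equal length that difference was 27.8, in the other direction.

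At 10 genes the STAG2 fold over background was at least 2-fold higher in both replicates of STAG2-KD, with a limit chosen after the values were seen. That is 11.1% of the 90, against 3.01% of all 7454 protein-coding genes with a STAG2 promoter peak in all 4 lists. The share was 5.68% among 405 other chr19 genes and 0.82% among 122 ZNF genes on other chromosomes. None of the 90 was at least 2-fold lower in both replicates, against 0.912% of all genes. The 10 genes share 9 peaks, since ZNF790 and ZNF345 start on opposite strands under 1 peak. In WT the fold at these promoters was 3.27 to 10.2, and in STAG2-KD it was 8.41 to 50.1. Their percentiles ran from 2.56 to 54.3 and from 33.2 to 57.2 in the WT lists of replicates 1 and 2, and from 58.5 to 95.2 and from 68.9 to 86.1 in those of STAG2-KD.

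The ZNF790 and ZNF345 peak had a STAG2 fold of 3.70 and 3.61 in WT replicates 1 and 2 and of 21.8 and 11.7 in STAG2-KD, a mean log2 ratio of 2.13 ± 0.61 (SD, n = 2). No list of STAG1 or CTCF held a promoter peak at either gene, and SMC1A had 1 only in replicate 2, with a fold of 3.19 in WT and 3.25 in STAG2-KD. The STAG2 signal was thus higher in both STAG2-KD lists than in either WT list.

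ZNF317 had the highest STAG2 values of the 10, with folds of 10.2 and 5.50 in WT and 50.1 and 18.6 in STAG2-KD. It had no STAG1 promoter peak in any list. CTCF was higher there too, at 3.90 and 4.82 in WT and 9.69 and 8.96 in STAG2-KD. SMC1A was missing from the WT list of replicate 1 and otherwise 3.18 to 3.77. The STAG2-KD summit of replicate 2 lay 101 bp upstream of the ZNF317 start, inside the sequence printed above, and the other 3 STAG2 summits lay within 168 bp of it.

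ZNF566 had STAG2 folds of 3.27 and 4.58 in WT and 20.2 and 12.8 in STAG2-KD, and CTCF folds were 4.44 and 7.53 in WT and 9.69 and 12.4 in STAG2-KD. ZNF649 went from 6.22 and 3.88 to 19.2 and 11.4, and it was the only 1 of the 10 with a STAG1 peak that was absent from both WT lists and present in both STAG2-KD lists, at 5.34 and 3.16. CTCF at ZNF649 was 5.38 and 8.30 in WT and 7.04 and 10.4 in STAG2-KD. These 2 genes and ZNF317 were the 3 of the 10 with CTCF in all 4 lists.

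ZNF350, also known as ZBRK1 and a repressor that binds BRCA1, went from 7.41 and 4.37 to 16.8 and 9.07, without STAG1 or CTCF in any list and with SMC1A at 6.12 and 2.87 in WT and 4.70 and 3.93 in STAG2-KD. ZNF175 went from 5.80 and 3.61 to 21.3 and 9.81 and had SMC1A in the STAG2-KD list of replicate 2 alone. ZNF223 went from 4.95 and 3.69 to 13.8 and 8.41. These 3 promoters had no CTCF peak.
ZNF414 had folds of 3.81 and 4.00 in WT and 13.4 and 10.2 in STAG2-KD, with a WT summit up to 394 bp away from the STAG2-KD summit. ZNF302 had 4.08 and 3.82 in WT and 12.8 and 8.91 in STAG2-KD. At both, SMC1A was present in all 4 lists at 2.67 to 6.64. STAG1 at ZNF302 was absent from both lists of replicate 1 and stood at 3.03 (WT) and 2.29 (STAG2-KD) in replicate 2.

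**Figure D2:**
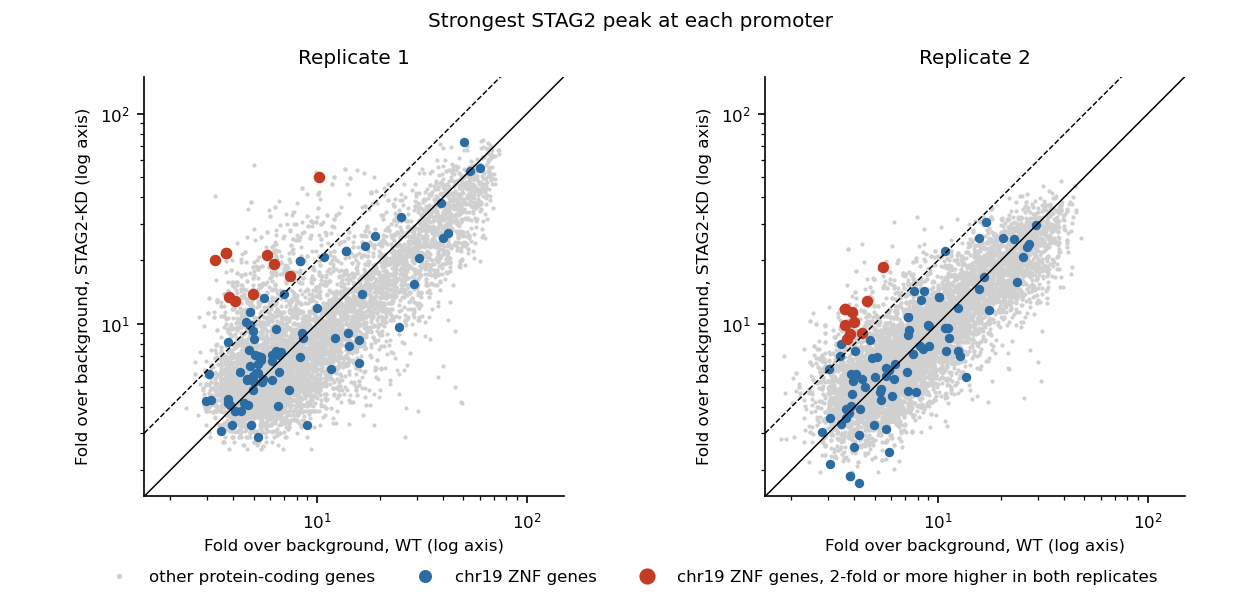
Fold over background of the strongest STAG2 promoter peak in WT (horizontal, log axis) and STAG2-KD (vertical, log axis), replicate 1 left and replicate 2 right, for genes with such a peak in all 4 STAG2 lists. Blue points are the chr19 ZNF genes, red points the 10 that were at least 2-fold higher in both replicates, grey points other protein-coding genes. The solid line is equality and the dashed line 2-fold higher, and all red points lie above the dashed line at WT folds of 10.2 or less.

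**Figure D3:**
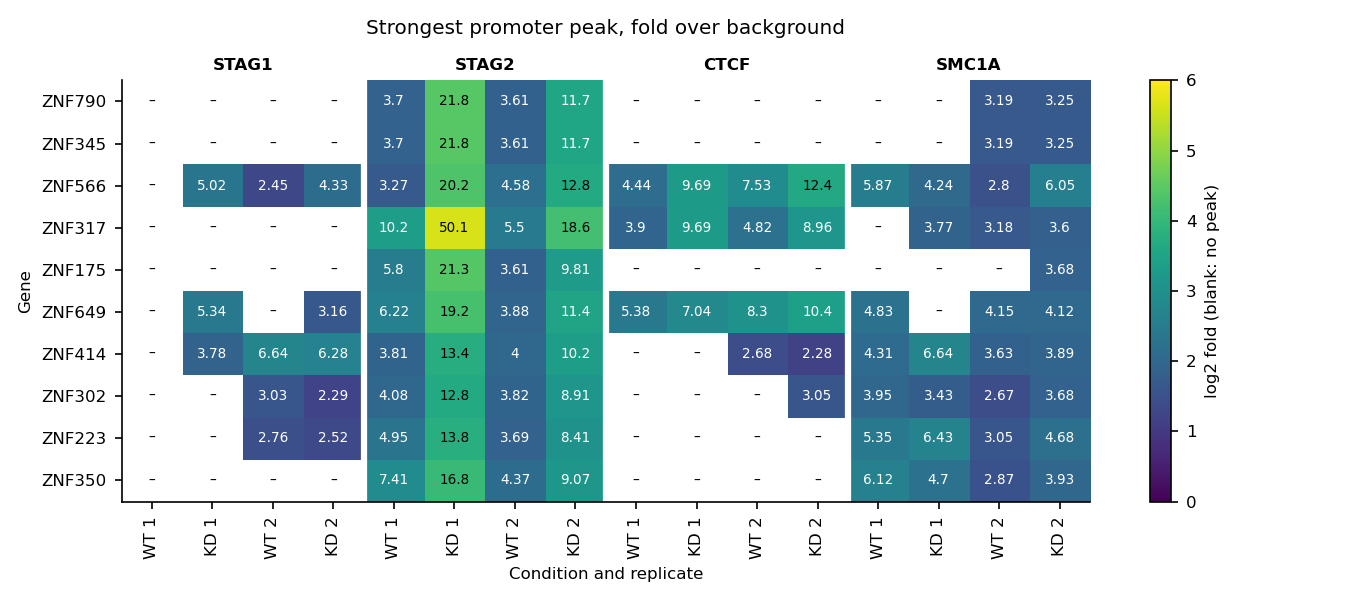
Fold over background of the strongest promoter peak of each antibody at the 10 genes, 1 column for each of the 16 lists, coloured by log2 fold, with the fold printed in each cell and a dash where the list had no promoter peak. Within each replicate the STAG2 value of STAG2-KD is above that of WT at every gene, which is how the genes were chosen. Of the 10, 5 have no STAG1 peak and 5 no CTCF peak.

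The share of genes with a 2-fold higher STAG2 signal was highest where the promoter had no CTCF peak. CTCF presence was not used to choose the 10 genes. Among the 90 genes with STAG2 in all lists, 5 of the 21 without a CTCF promoter peak in any list were at least 2-fold higher (23.8%), 2 of the 18 with CTCF in 1 to 3 lists (11.1%) and 3 of the 51 with CTCF in all 4 lists (5.88%). Genes and not peaks are counted here, and ZNF790 and ZNF345, 2 of those 5, share 1 peak. The same order held over all protein-coding genes, with 12.3%, 5.85% and 1.77%, and other chr19 genes without CTCF had a share like that of the ZNF genes, 6 of 25 (24.0%). The median log2 ratio was 0.35 and 0.50 in replicates 1 and 2 at the 21 chr19 ZNF genes without CTCF, and 0.09 and −0.07 at the 51 with it. Cohesin without CTCF was also commoner at chr19 ZNF promoters: of those with a peak of STAG1, STAG2 or SMC1A, 43.7% of WT and 44.4% of STAG2-KD promoters lacked CTCF (replicate 1), and 35.4% and 36.6% in replicate 2. Over all genes these shares were 28.3% and 29.3%, and 17.0% and 19.1%.

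The YY1 core was looked for after the sequences had been seen. ATGGCNGC, searched on both strands, occurred in the 2001 bp promoter window of 38.3% of chr19 ZNF genes, 28.8% of other chr19 genes and 27.9% of all protein-coding genes. Within 100 bp of the summit it occurred in 4 of the 9 peaks that were at least 2-fold higher (44.4%), in 10.4% of the 182 other STAG2 peaks at chr19 ZNF promoters and in 9.84% of the 742 STAG2 peaks at promoters of other chr19 genes, all in the STAG2-KD list of replicate 2. A core of the CTCF site, CCNNNAGNNGGC on both strands, was in 42.7% of chr19 ZNF promoters and 41.6% of all promoters. It was in 58.8% of the 34 promoters with peaks in all lists and in 40.0% of the 45 with none. For the YY1 core these shares were 29.4% and 40.0%. The median GC content was 55.5% for those 34, 49.3% for those 45 and 52.1% for all chr19 ZNF promoters, against 58.3% for other chr19 genes.

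STAG2 percentiles were lower in STAG2-KD at other promoters. ZNF227 had percentiles of 37.6 and 44.4 in WT and 14.1 and 0.335 in STAG2-KD, and its fold went from 6.53 and 4.21 to 4.07 and 1.74. ZNF266 went from 21.2 and 58.4 to 14.4 and 15.9, and ZNF580 from 8.74 and 39.5 to 6.87 and 1.71. ZNF490, which had peaks of every antibody in all lists, went from 65.9 and 75.5 to 32.0 and 62.9. ZNF544 went from 50.5 to 2.93 in replicate 1 and only from 74.2 to 73.7 in replicate 2. These had the 5 lowest mean changes among the 24, with ZNF581 tied with ZNF580 because they share the peak. The size of the change differed between replicates, since most of it lay in replicate 2 at ZNF266 and ZNF580 and in replicate 1 at ZNF544. The lists differ in length, so the folds are given too. ZNF266 had folds of 4.94 and 5.82 in WT and 4.80 and 2.45 in STAG2-KD, and ZNF580 4.08 and 3.82 against 3.84 and 1.88. ZNF490 had 15.9 and 12.7 against 6.49 and 7.03, and ZNF544 8.95 and 11.3 against 3.27 and 8.50.

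The higher STAG1 percentiles of STAG2-KD lay in replicate 1, where the STAG2-KD list was also the longer, with 85621 peaks against 63535. The part of list length in this was not tested. Of 46 chr19 ZNF promoters with STAG1 in all 4 lists, the percentile was higher in both replicates at 19 (41.3%) and lower at 4 (8.70%), against 54.7% and 9.51% over all protein-coding genes. The median change was 14.2 points in replicate 1 and −0.94 in replicate 2, and the median fold went from 7.75 to 9.21 and from 9.44 to 7.16. ZNF256 had percentiles of 11.5 and 57.6 in WT and 54.2 and 63.0 in STAG2-KD. ZNF773 went from 3.67 and 41.9 to 34.4 and 47.7, and ZNF234 from 22.2 and 57.7 to 51.9 and 62.3. ZNF284 and ZNF416 were the other 2 of the 5 with the largest mean change among the 19, at 13.9 and 13.4 points. In all 5 the STAG2-KD list was the higher of its replicate, but WT of replicate 2 lay above STAG2-KD of replicate 1. The 4 that were lower were ZNF554, ZNF584, ZNF224 and ZNF653, with mean changes of −11.7, −7.42, −6.11 and −4.11 points.

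Within a replicate, STAG2 peaks at chr19 ZNF promoters were both lost and gained somewhat more often than at all promoters. A lost peak is a WT peak with no STAG2-KD peak overlapping it. Of the WT STAG2 promoter peaks, 43 of 137 were lost in replicate 1 (31.4%, against 27.2% of all promoter peaks) and 46 of 217 in replicate 2 (21.2%, against 12.6%). The lost peaks were weak, with median percentiles of 14.6 and 13.9, against 32.5 and 45.3 for those kept. Of the STAG2-KD STAG2 promoter peaks, 23 of 111 were gained in replicate 1 (20.7%, against 15.0%) and 26 of 191 in replicate 2 (13.6%, against 8.81%). Of the STAG2-KD STAG1 promoter peaks, 63 of 114 were gained in replicate 1 (55.3%, against 43.2%) and 27 of 162 in replicate 2 (16.7%, against 16.4%). These shares were not tested over samples. STAG1 was gained at promoters that lost STAG2 and at promoters that kept it. Of the genes without a WT STAG1 promoter peak, 7 of the 21 that lost STAG2 gained STAG1 in replicate 1 (33.3%, against 43.8% over all genes) and 1 of the 14 in replicate 2 (7.14%, against 20.3%). Of those that kept STAG2, 22 of 49 gained it in replicate 1 (44.9%, against 69.3% over all genes) and 15 of 32 in replicate 2 (46.9%, against 49.3%).

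Sites lost or gained in both replicates were few. A site counted here when both lists of one condition held it and neither list of the other did. For STAG2, 2 of 114 promoter sites were lost (1.75%, against 1.51% over all promoter sites), 0 of 4 in 3′ exons (against 3.70%) and 5 of 93 elsewhere (5.38%, against 5.80%). One lost promoter site lay at ZNF480, with STAG2 folds of 4.94 and 4.97 in WT, while CTCF stayed in all 4 lists at 4.07 to 6.86 and STAG1 was present in 3 lists. The other lay just inside ZNF432 and ZNF841, which start close together on the same strand, with folds of 5.14 and 2.50. Both promoters still had another STAG2 peak in STAG2-KD of replicate 2, with a fold of 2.83 at ZNF480 and 2.38 at ZNF432. A single STAG2 promoter site was gained, at ZNF358, of 108 (0.926%, against 1.57%), with folds of 5.81 and 4.02 in STAG2-KD and SMC1A in all 4 lists. No 3′ exon site was gained of 1 (against 0.743%) and none elsewhere of 66 (against 0.468%).
Of the STAG2 sites lost outside promoters and 3′ exons, the strongest lay near the annotated 3′ end of ZNF91, at chr19:23488274-23488767. Its STAG2 folds were 6.41 and 6.04 in WT, while STAG1 stayed in all 4 lists at 4.63 and 5.11 in WT and 4.30 and 4.98 in STAG2-KD. A site shared by ZNF580 and ZNF581 lost both STAG2, at 4.87 and 3.26 in WT, and STAG1, at 5.49 and 3.18. CTCF there was among the strongest, at 51.2 and 45.9 in WT and 54.0 and 29.4 in STAG2-KD, and SMC1A was in all 4 lists at 2.53 to 4.54. ZNF536 held 2 further lost STAG2 sites and ZNF773 the last.

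For STAG1, 1 of 51 promoter sites was lost (1.96%, against 1.23%), none of 3 in 3′ exons (against 0.888%) and 2 of 62 elsewhere (3.23%, against 1.60%). The lost promoter site lay at ZNF30, with folds of 4.74 and 3.97 in WT. CTCF was lost there too, with WT folds of 4.75 and 4.65, and STAG2 and SMC1A remained only in the STAG2-KD list of replicate 2. ZNF30 was the only chr19 ZNF promoter with 2 antibodies lost in both replicates. Gained STAG1 sites numbered 2 of 91 at promoters (2.20%, against 5.73%), none of 5 in 3′ exons (against 4.45%) and 5 of 91 elsewhere (5.49%, against 6.06%). The promoters were ZNF649, given above, and ZNF665, with STAG1 folds of 4.66 and 3.47 in STAG2-KD and no STAG2 peak in WT. Of the 5 elsewhere, 4 lay in ZNF536, a repressor of neuronal differentiation, which spans 488696 bp and is the longest of the 248.

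CTCF lost 14 sites in all on the lists as deposited, against 3 for STAG1, 7 for STAG2 and 5 for SMC1A, and that order did not hold on shorter lists. With lists of equal length CTCF lost 2, STAG1 5, STAG2 9 and SMC1A 11. On the full lists CTCF lost 6 of 96 promoter sites (6.25%, against 2.58%), 2 of 9 in 3′ exons (22.2%, against 2.71%) and 6 of 97 elsewhere (6.19%, against 3.43%). ZNF835 had the strongest of the promoter sites, with folds of 5.87 and 6.82 in WT and no peak of any other antibody. ZNF556 likewise had CTCF alone, at 4.75 and 4.22. At ZNF491 the lost site, with folds of 4.75 and 4.21, was a minor second peak near the edge of the window, and the main CTCF peak of its promoter stayed at 64.3 and 40.3 in WT and 72.8 and 30.0 in STAG2-KD, with STAG1, STAG2 and SMC1A in all their lists. The remaining promoter sites were those of ZNF30, ZNF792 and ZNF552, the last of which lies inside the longer ZNF586, and STAG2 and SMC1A peaks were also present at these 3. The CTCF sites in 3′ exons lay at ZNF865, with folds of 4.22 and 2.92, and ZNF837, with 5.27 and 4.55, again with no other antibody. All of these were weak CTCF peaks, and none was left when only the strongest 50% of each list was kept. CTCF gained 3 of 93 promoter sites (3.23%, against 1.81%), none of 6 in 3′ exons (against 1.39%) and 1 of 104 elsewhere (0.962%, against 1.93%). The gained promoters were ZNF69, with folds of 6.12 and 5.10, ZNF57, with 4.37 and 3.81, and ZNF606, with 4.46 and 3.10.

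SMC1A lost 2 of 125 promoter sites (1.60%, against 1.32%), 2 of 11 in 3′ exons (18.2%, against 3.24%) and 1 of 74 elsewhere (1.35%, against 3.75%). The promoters were ZNF536, with folds of 5.44 and 2.21 in WT, and ZNF222, with 4.97 and 3.00. The 3′ exon sites lay at the overlapping ZNF420 and ZNF585A, with 3.82 and 1.97, and at ZNF814 and ZNF587, with 4.20 and 2.96, and no other antibody had a peak at either. SMC1A gained none of 127 promoter sites (against 2.54%), none of 8 in 3′ exons (against 4.64%) and 3 of 79 elsewhere (3.80%, against 5.92%).

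The 3′ exons of chr19 ZNF genes held fewer peaks per Mb than 3′ exons of other genes. Those of chr19 ZNF genes are long, with a median of 3221 bp against 705 bp for other chr19 genes, so peaks were counted per Mb of 3′ exon. Across the 16 lists chr19 ZNF genes had 1.14 to 29.6 peaks per Mb, ZNF genes on other chromosomes 21.7 to 79.2 and other chr19 genes 53.7 to 170.0. The range of the chr19 ZNF genes lay wholly below that of the other chr19 genes. STAG1, STAG2 and CTCF were also less dense in 3′ exons than in the rest of the same genes in every list. For SMC1A the 3′ exons held 13.7 and 29.6 peaks per Mb in WT, against 12.8 and 22.5 in the rest of the genes. In STAG2-KD these values were 9.1 and 23.9 against 15.1 and 22.1. The mean log2 ratio of chr19 ZNF to other chr19 genes was −3.77 ± 0.26 over the 4 STAG1 lists (SD), −4.02 ± 1.07 over those of STAG2, −3.68 ± 0.31 over those of CTCF and −2.82 ± 0.48 over those of SMC1A. It was below 0 in 4 of 4 lists of each antibody, and the two-sided exact sign-flip test gave p = 0.125 each time, the smallest it can give with 4 lists. Lists of 1 antibody share the cell line, and the number of peaks behind a chr19 ZNF value was 1 to 26. Read mappability in the repeated fingers and GC content were not tested.

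Upon STAG2 KD the number of genes with a 3′ exon peak went from 4 to 1 and from 9 to 6 for STAG2, from 8 to 6 and from 12 to 9 for CTCF, and from 10 to 6 and from 20 to 17 for SMC1A. For STAG1 it went from 3 to 4 and stayed at 6. The mean log2 ratio was −1.29 ± 1.00 for STAG2, −0.42 ± 0.00 for CTCF, −0.49 ± 0.36 for SMC1A and 0.21 ± 0.29 for STAG1 (SD, n = 2). The exact permutation test gave p = 0.667 for the first 3 and p = 1 for STAG1, and the counts are too small to go further.

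**Figure D4:**
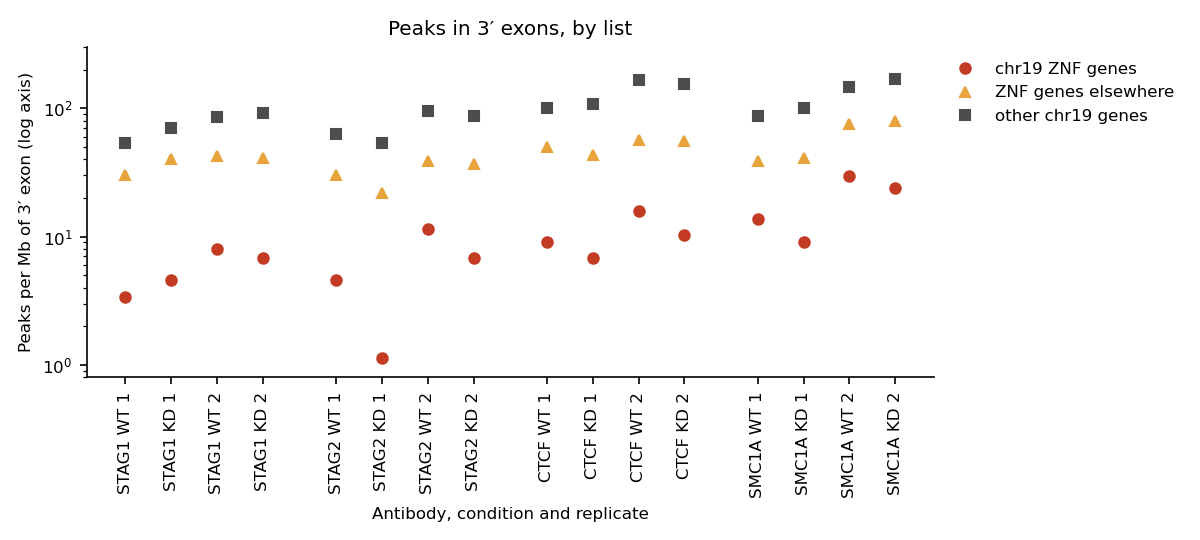
Peaks per Mb of 3′ exon (log axis) in each of the 16 lists. Red circles are the chr19 ZNF genes, orange triangles ZNF genes on other chromosomes and grey squares the other chr19 genes. Red circles lie lowest in every list, between 1.14 and 29.6 per Mb.

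Only 32 of the 248 genes had a 3′ exon peak in any list, and 5 had 1 in 8 or more lists. ZNF575, ZNF576 and ZNF473 had 1 in 15 lists each. At ZNF575 CTCF folds were 32.2 and 26.8 in WT and 34.0 and 27.5 in STAG2-KD, and SMC1A folds were 11.4 and 9.42 in WT and 19.5 and 14.3 in STAG2-KD. STAG2 was at 6.41 and 4.71 in WT, absent in STAG2-KD of replicate 1 and 4.17 in replicate 2. STAG1 went from 4.19 and 4.42 to 8.53 and 6.88. Within each replicate STAG2 was therefore lower and STAG1 higher in STAG2-KD at this CTCF site. How often sites of all genes showed both directions was not counted.

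ZNF473 codes for ZFP100, which takes part in histone mRNA processing. Its CTCF folds were 36.9 and 26.8 in WT and 18.4 and 16.9 in STAG2-KD, and its STAG2 folds 11.5 and 7.57 in WT and 6.15 and 3.59 in STAG2-KD. SMC1A was 5.93 and 4.00 in WT, absent in STAG2-KD of replicate 1 and 2.80 in replicate 2, and STAG1 went from 4.61 and 3.86 to 4.30 and 2.71. By fold, all 4 proteins were thus lower in STAG2-KD in both replicates. The STAG1 percentile of replicate 1 was not, at 11.6 in WT and 13.3 in STAG2-KD. At ZNF576 STAG2 was 5.23 and 5.67 in WT, absent in STAG2-KD of replicate 1 and 5.02 in replicate 2, while CTCF was 13.6 and 16.1 in WT and 18.6 and 12.2 in STAG2-KD, which overlap. All 15 summits of ZNF576 lay in the untranslated part of the exon.

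The next 7 genes had weaker or more partial peaks. ZNF580 and ZNF562 had a 3′ exon peak in 8 lists, ZNF574 in 7, ZNF180 in 6, ZNF544 and ZNF285 in 5 and ZNF121 in 4. ZNF121 had CTCF alone, at 6.14 and 4.75 in WT and 7.28 and 6.92 in STAG2-KD. The peaks of ZNF574 reached CTCF folds of 77.8, but 7 of its 8 summits lay beyond the end of the exon. ZNF180 and ZNF544 had mainly SMC1A, with all 4 SMC1A lists at both genes and most summits in the stretch that codes for fingers.

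The fingers themselves were counted from the coding sequence. A C2H2 finger pattern was found in 246 of the 248 genes, with a median of 12 fingers and a maximum of 36, in ZNF208, and 97.6% of the 3110 fingers lay in the 3′ exon. Finger stretches made up 0.269 Mb and the rest of the 3′ exons 0.61 Mb. SMC1A had 7 and 16 summits in finger stretches in WT and 7 and 10 in STAG2-KD, which is 26.0, 59.5, 26.0 and 37.2 per Mb, against 1.64 to 13.1 per Mb in the rest of the exons. For STAG1 and STAG2 finger stretches held 0 to 4 summits a list, and 5 of the 8 lists had none. CTCF had 3 and 6 in WT and 2 in each STAG2-KD list, and was denser in finger stretches than beside them in 3 of its 4 lists, at 11.2 against 6.56, 22.3 against 8.19 and 7.44 against 4.92 per Mb. In those 3 lists CTCF had 4, 5 and 3 summits in the rest of the exons. SMC1A was denser in finger stretches in all 4 of its lists. In the rest it had 4 and 8 summits in WT and 1 and 8 in STAG2-KD, so all these counts are small. In replicate 1 ZNF180 and ZNF544 gave most SMC1A finger summits in both conditions, but not in replicate 2.

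Occupancy followed the gene arrays along the chromosome. With neighbours less than 500 kb apart joined, 224 of the 248 genes fell into 8 clusters of 8 or more genes, named C1 to C8 here from the short-arm end. Cluster C3, 37 genes from ZNF101 to ZNF254 next to the centromere, had the lowest occupancy and was nearly bare in replicate 1 only. A promoter peak was missing from all 16 lists at 17 of its genes (45.9%), its median gene had a promoter peak in 1 list, and 12 of the 20 genes without any peak lay there. In replicate 1 a promoter peak of STAG1 was present at 0, of STAG2 at 1, of CTCF at 2 and of SMC1A at 1 of its genes in WT. In STAG2-KD these counts were 1, 0, 2 and 0. In replicate 2 they were 4 for STAG1, 9 for CTCF and 11 for SMC1A in WT, and 4, 6 and 10 in STAG2-KD, with STAG2 given below. ZNF91 and ZNF208 belong to this cluster. Cluster C8, 43 genes from ZNF264 to ZNF446 at the long-arm end, had the highest median, 14 lists, with 12 genes (27.9%) holding a promoter peak in all 16. Cluster C2 had a like share in all 16 (28.0%), and cluster C1 had no gene without a promoter peak.
The other clusters had medians of 6.5 to 11.5 lists. In replicate 2, STAG2 marked 17 WT promoters of cluster C3 against 10 in STAG2-KD. The 10 genes with the 2-fold higher STAG2 signal lay in clusters C1, C4, C5 and C6, with ZNF302 outside any of the 8. The clusters are arrays of related sequence, and how uniquely reads map in each was not tested.

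**Figure D5:**
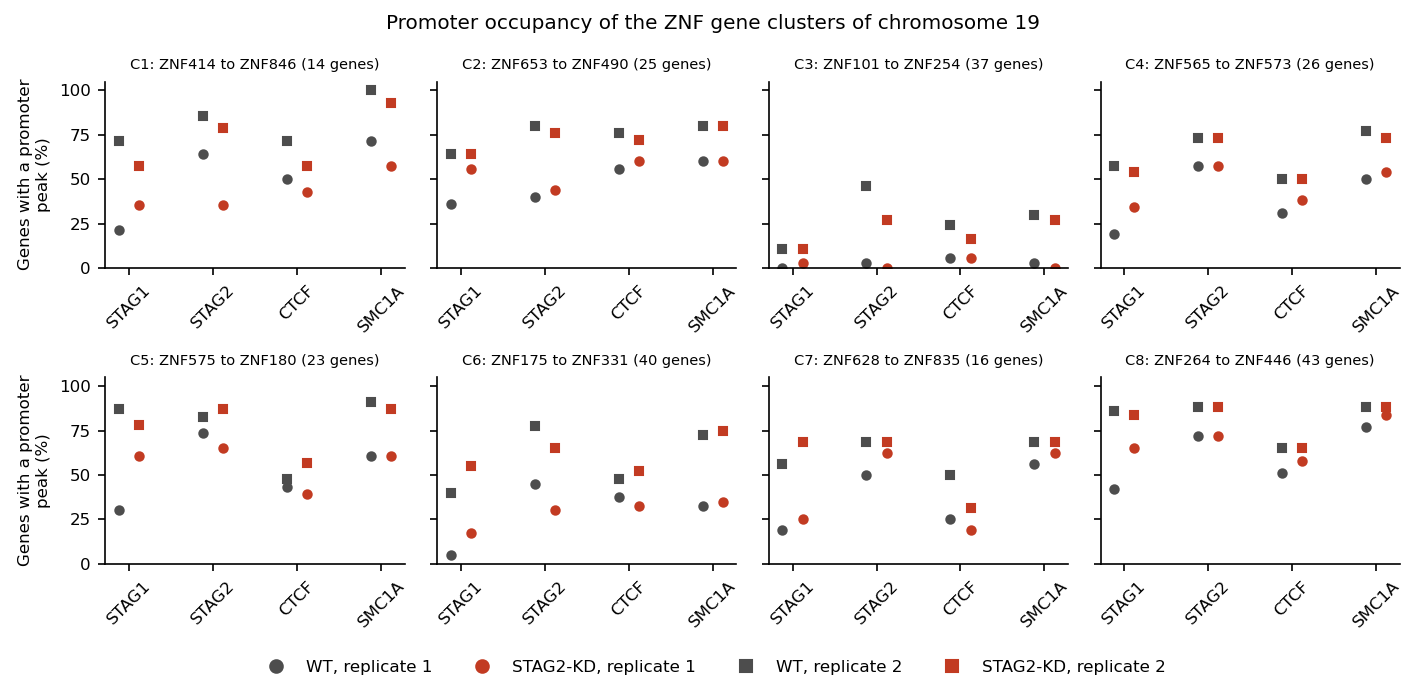
Share of genes with a promoter peak (%) in each of the 8 clusters, by antibody; circles are replicate 1 and squares replicate 2, grey WT and red STAG2-KD, 1 point a list. Cluster C3 (37 genes) lies lowest and cluster C8 (43 genes) among the highest.

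The repressor machinery that KRAB zinc finger proteins use was looked at beside its targets, in a list of 13 genes for TRIM28 and its partners. STAG2 marked 7 of their promoters in each condition of replicate 1, and 11 and 12 in WT and STAG2-KD of replicate 2. TRIM28 itself, on chromosome 19, had STAG2 folds of 4.40 and 4.02 in WT and 4.79 and 4.91 in STAG2-KD. STAG1 sites at promoters or 3′ exons were gained in both replicates at CBX3, CHD3, MPHOSPH8 and PPHLN1 and lost at CBX5. Over all genes 5.73% of promoter and 4.45% of 3′ exon sites were gained, and 1.23% and 0.888% lost. Genes are named here, while these shares are of sites. The sites of this list and of the 18 genes below were not counted, so the 2 measures cannot be set against each other. CBX3 and PPHLN1 already had another STAG1 promoter peak in both WT lists, at 3.80 and 3.48 and at 4.79 and 4.16. CBX5 still had a STAG1 promoter peak in STAG2-KD of replicate 2, with a fold of 1.92. CTCF was lost at a site of CBX1, an HP1 protein. SMC1A was gained at a second site of SETDB1, while its main SMC1A promoter peak had folds of 5.02 and 7.03 in WT and 4.02 and 3.86 in STAG2-KD. Among 18 other C2H2 genes of chromosome 19 not named ZNF, a CTCF site was lost at ZSCAN22 and an SMC1A site gained at MZF1. Over all genes CTCF was lost at 2.58% of promoter and 2.71% of 3′ exon sites, and SMC1A gained at 2.54% and 4.64%. ZSCAN22 still had a CTCF promoter peak in STAG2-KD of replicate 2, at 3.84. MZF1 already had an SMC1A promoter peak in WT of replicate 2, at 2.93. STAG2 at MZF1 was at 5.04 and 3.18 in WT and 17.8 and 7.19 in STAG2-KD, the same direction as at the 10 ZNF genes. The other C2H2 genes with a promoter peak in every STAG2 list did not all share this direction. ZFP14 and ZSCAN22 were higher in both replicates, with smaller rises. ZIK1 was lower in both, and ZBTB7A was lower in replicate 1 and higher in replicate 2.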

How the data were processed

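ChIP-seq peaks were called by the authors with MACS2 against input, and the deposited lists give for each peak its ratio (fold) over background and its −log10 p-value and −log10 q-value. Reads were aligned to hg19. The study's methods name bowtie2, samtools and picard, while the submitters' processing notes name Bowtie2 for replicate 1 and CASAVA 1.4, BWA, SAMtools, Picard and deepTools for replicate 2. The deposited replicate 1 lists stop at a −log10 q-value of 2 and the replicate 2 lists at a −log10 p-value of 2. The labels tie each replicate number to its own extraction and size selection, so the numbers mark a batch and pair the libraries. The 4 input libraries have no list of their own and were used only through the authors' calls.

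Genes came from GENCODE v44 lifted to hg19, which is not the authors' annotation. A peak was placed by any overlap of 1 bp, first at the promoter (1000 bp on either side of the gene start), then in the 3′ exon, then elsewhere. Overlapping peaks of both lists of a condition formed 1 site. Groups were compared with two-sided exact permutation tests over lists (Python 3.11.15, numpy 2.4.6, pandas 2.3.3, scipy 1.17.1, matplotlib 3.10.9). The calling of lost and gained sites and the permutation and sign-flip tests were checked on simulated data, and the other steps were not. C2H2 fingers were found as a residue pattern in the translated coding sequence. The alternatives tried were other thresholds, list lengths, overlaps, class definitions, gene starts, single replicates and a replicate block.

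The genes, lists and tests were chosen with earlier results of these data known. Genes named were those with a promoter or 3′ exon site lost or gained in both replicates (at most 8 per antibody, direction and class), the 10 with a 3′ exon peak in most lists, the 5 with the largest mean rise and the 5 with the largest mean fall of the STAG2 and STAG1 percentile among genes with a peak in all 4 lists and the same direction in both replicates, and list genes with a changed site. Genes named for a 2-fold STAG2 rise, for sites outside promoters and 3′ exons, by finger number, and ZNF274, TRIM28 and ZNF91 were chosen after their values were seen. FAM208A of the list for TRIM28 and partners carries the symbol TASOR in this annotation.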

Additional observations from a re-analysis of the deposited data

How the results depend on the processing

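Results in the first part of this paragraph are mean log2 ratios of STAG2-KD to WT. With only the strongest 50% of each list, genes with a promoter peak reversed for STAG2 (0.358), CTCF (0.0593) and SMC1A (0.0555), and genes with a peak elsewhere for CTCF (−0.117) and SMC1A (0.0607). With the same number of peaks in every list, promoters reversed for STAG2 (0.518) and CTCF (0.133), and peaks elsewhere for STAG1 (−0.0122), STAG2 (0.122), CTCF (−0.0664) and SMC1A (0.0162). Any annotated transcript start reversed promoters for CTCF (0.00839) and SMC1A (0.012) and CTCF elsewhere (−0.0497). CTCF elsewhere was also −0.00121 at a common q-value threshold, −0.00772 by summit and −0.0099 with the last exon of any coding transcript, and the STAG1 3′ exon count was −0.085 by summit. With 1 replicate left out, the lowest and highest values were −0.0902 and 0.485 for STAG1 elsewhere, −0.0478 and 0.0671 for CTCF elsewhere, −0.04 and 0.0118 for SMC1A promoters and −0.0566 and 0.0506 for SMC1A elsewhere.
The median percentile differences reversed with lists of equal length to −1.56 (STAG1), 27.8 (STAG2), −8.33 (CTCF) and −3.87 (SMC1A). With any transcript start they were 3.29 for STAG2 and −0.362 for CTCF, and without readthrough genes −0.022 for CTCF. With 1 replicate left out they ran from −0.777 to 13.3 for STAG1, from −1.14 to 1.74 for CTCF and from −1.35 to 1.61 for SMC1A.
Counts of sites changed in both replicates depended on list length. With the strongest 50% of each list, lost sites numbered 0 for STAG1, 0 for CTCF and 1 for SMC1A, and gained sites 3 (STAG1), 13 (STAG2), 1 (CTCF) and 1 (SMC1A). With lists of equal length, lost sites numbered 5 for STAG1, 2 for CTCF and 11 for SMC1A, and gained sites 23 for STAG2 and 16 for SMC1A. At the common q-value threshold 15 STAG1 and 3 STAG2 sites were gained, and with a 50% overlap 11 STAG1 sites were gained and 10 SMC1A sites lost. The count of genes with higher STAG2 signal in both replicates was 16 at a limit of 1.5-fold and 3 at a limit of 3-fold, limits chosen after seeing the data. The cause of these changes was not tested.
The lower density of peaks in 3′ exons of chr19 ZNF genes than in those of other chr19 genes kept its direction in every alternative that gave a value. The strongest 50% gave none for STAG1 and STAG2, for which a list held no such peak. With the replicate block the values were those of the unblocked comparison, such as −0.097 for STAG2 promoters, with exact sign-flip p = 0.5 or 1, where 0.5 is the smallest that 2 pairs allow, and no call changed. Each group had 2 lists, so no comparison between conditions could pass a threshold of 0.05.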
